A study of Mus musculus with 2 samples.

Results

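The microRNA genes described here lie in the proximal part of the imprinted Dlk1-Dio3 region of mouse chromosome 12, between the noncoding gene Meg3 and the far end of the coding sequence of Rtl1. They were chosen by a rule of names and positions that uses no measured values, but with earlier results of these data known. The rule names 10 genes on the plus strand between positions 109563692 and 109595388 of mm10: Mir673, Mir493, Mir337, Mir540, Mir665, Mir431, Mir433, Mir127, Mir434 and Mir136. They are 10 of the 2202 microRNA genes in the deposited tables and 10 of the 14 annotated on that strand of the interval. MicroRNAs were sequenced from the adrenal gland of female mice aged 10 days of strain B6CASTF1/J, a hybrid of C57BL/6J and CAST/EiJ mice. There is 1 group of 2 libraries, labelled biological replicates 1 and 2 and made from the animals numbered 3 and 4, each with 1 technical replicate. No treatment, mutation or other group was part of the design. Both libraries carry the same donor entry, so only those numbers mark them as separate animals, and the spread between them may be technical.

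Genes of the Dlk1-Dio3 region are expressed according to the parent they were inherited from. Its microRNAs are processed from long noncoding transcripts of the maternal chromosome that begin near Meg3, whereas Rtl1, a retrotransposon-derived gene needed in placental capillaries and fetal muscle, is transcribed in the opposite direction from the paternal chromosome. Mir127, Mir431, Mir433, Mir434 and Mir136 are made from the strand opposite to the Rtl1 coding sequence, so their products pair with Rtl1 mRNA without mismatch and direct its cleavage. The counts give no parental origin, and Rtl1 mRNA was not measured.

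The sequences below, from RefSeq (GRCm38.p6), are those of the members opposite Rtl1, because their pairing with Rtl1 sets them apart from the other members. All are written 5′ to 3′, and capitals mark the seed, bases 2 to 8, which leads target pairing.
miR-431-5p: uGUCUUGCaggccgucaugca
miR-431-3p: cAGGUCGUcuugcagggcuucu
miR-433-5p: uACGGUGAgccugucauuauuc
miR-433-3p: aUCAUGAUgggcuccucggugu
miR-127-5p: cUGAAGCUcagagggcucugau
miR-127-3p: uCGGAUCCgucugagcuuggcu
miR-434-5p: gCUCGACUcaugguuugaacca
miR-434-3p: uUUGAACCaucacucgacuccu
miR-136-5p: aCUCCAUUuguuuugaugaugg
miR-136-3p: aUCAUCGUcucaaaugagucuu

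As their position implies, each of these 10 arms had a full-length complement in the annotated Rtl1 transcript. All 10 complements lay in its coding sequence, which spans 109590172 to 109595403 on the minus strand of chromosome 12. The annotated arm of Mir432, opposite Rtl1 but not a member, also had a full complement in that coding sequence. For miR-127-3p, at 109592888 to 109592909, the Rtl1 sequence reads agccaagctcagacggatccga. None of the 10 arms of the other members (Mir673, Mir493, Mir337, Mir540 and Mir665) had a full complement there. The Mir127 hairpin, with both arms in capitals, is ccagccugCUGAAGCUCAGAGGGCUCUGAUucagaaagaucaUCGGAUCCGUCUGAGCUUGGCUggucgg.

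The members between Meg3 and Rtl1 overlap no other gene in the GENCODE M21 annotation except at Mir337, which faces a microRNA gene on the minus strand, Mir3544. Mir665 and Mir673, which differed most between the libraries, are shown with Mir337 and its opposite partner.
miR-673-5p: cUCACAGCucugguccuuggag
miR-673-3p: uCCGGGGCugaguucugugcacc
miR-665-5p: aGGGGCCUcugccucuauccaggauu
miR-665-3p: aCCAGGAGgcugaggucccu
miR-337-5p: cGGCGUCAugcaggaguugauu
miR-337-3p: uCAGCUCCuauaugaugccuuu
miR-3544-5p: aGAAAGGCaucauauaggagcug
miR-3544-3p: aCUCCUGCaugacgccguuccc

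The 10 members gave 20 mature arms and 20 distinct seeds, so no seed was shared among them. Of these, 18 seeds belonged to no other mouse microRNA of the RefSeq table, and the exceptions were miR-673-5p, which shares its seed with miR-6985-3p, and miR-540-3p, which shares it with miR-6915-5p. Over the 1674 distinct mature sequences of that table, 72.5% had a seed of their own. The longest stretch common to any pair of arms was 10 bases, between the 2 arms of Mir431, and miR-337-5p shared 9 bases with miR-431-5p. Each of the 20 arms occurred in a single hairpin of the table. Hairpins of the members had a median length of 91 bases against 79 over the 997 distinct hairpins of the table, and a median GC content of 54.8% against 51.7%, from 40.3% in Mir136 to 61.5% in Mir673. Their median folding energy per base, computed with RNAfold, was -0.474 kcal/mol against -0.407 kcal/mol.

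Levels are given in CPM, a count scaled to a common library total, here all reads assigned to microRNA genes on the strand of the gene. Counts are per hairpin, so the 5p and 3p arms were not told apart. CPM values were not divided by length, because a small-RNA read stands for 1 processed molecule, and the annotated arms of the members range from 19 to 26 bases. Replicate 1 held 2023410 assigned reads and replicate 2 held 3208821, so 1 count was worth 0.494 CPM and 0.312 CPM. Intervals on single-library values above 0 are exact two-sided Clopper-Pearson 95% intervals. For a count of 0 the upper limit is set at 3 counts, close to the one-sided 95% Poisson limit and tighter than a two-sided interval. Both cover counting error only.

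Together the 10 members took 4.62% of the assigned reads of replicate 1 (95% interval 4.59 to 4.65%). In replicate 2 they took 3.83% (3.81 to 3.85%), and the mean share was 4.23% ± 0.556 (SD, n = 2). All 10 were at 10 CPM or more in both libraries, the floor used for detection. So were 11 of the 14 plus-strand genes of the interval and 13.7% of all 2202 genes, of which 1412 had no count. All 10 members also stood at 100 CPM or more. The genes opposite Rtl1 supplied 87.3% of the members' reads in replicate 1 and 89.4% in replicate 2. The genes between Meg3 and Rtl1 supplied the remaining 12.7% and 10.6%.

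Among the genes opposite Rtl1, Mir127, a microRNA also known to repress the transcriptional repressor gene Bcl6, was counted at 29138 CPM in replicate 1 and at 23754 CPM in replicate 2. That placed it at rank 9 of all microRNA genes by mean level of counted reads. Reads with several alignments were not counted, and each member arm occurs in a single hairpin. Genes with identical copies can thus be undercounted beside the members, so ranks and shares given here hold for counted reads only. It made up 63.1% and 62.0% of the members' reads, a mean of 62.5% ± 0.781 (SD, n = 2), and the libraries thus differed little in this share. Its hairpin lies at 109592846 to 109592915 of chromosome 12.

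Mir431, known from muscle stem cells as a repressor of Pax7, was at 5223 and 5239 CPM in replicates 1 and 2. Mir433 was at 4469 and 4301 CPM. These genes ranked 39 and 42 among all genes, and both were nearly level between the libraries. With Mir127 they made up 84.1% and 86.9% of the members' reads. Their hairpins lie at 109590447 to 109590537 and at 109591715 to 109591838.

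Mir434, at 109594506 to 109594599, had 1315 CPM in replicate 1 against 847 CPM in replicate 2. Mir136, at 109595327 to 109595388, was the lowest of all members in both libraries, at 169 and 116 CPM (exact 95% intervals 151 to 187 and 105 to 129 CPM). Both were higher in replicate 1, and the intervals of Mir136 did not overlap. Within the stretch opposite Rtl1, Mir127 was counted 173 times as often as Mir136 in replicate 1 and 204 times as often in replicate 2.

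Among the genes between Meg3 and Rtl1, Mir337 was the most abundant in both libraries, with 2625 CPM in replicate 1 against 1996 CPM in replicate 2. Mir540 followed in replicate 2 at 1133 CPM and stood at 1086 CPM in replicate 1. Mir337 was higher in replicate 1, while Mir540 was close in both. The hairpins of Mir337 (109585789 to 109585885) and Mir540 (109586080 to 109586146) lie 194 bases apart.

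Mir665, which starts 167 bases after Mir540 and spans 109586314 to 109586407, had 1029 CPM in replicate 1 against 274 CPM in replicate 2. Mir673, the member nearest to Meg3 at 109571990 to 109572080, was at 934 and 509 CPM. Mir493, at 109580233 to 109580315 and known from tumour cells as a suppressor of metastasis, was at 206 and 160 CPM. All 3 were higher in replicate 1, and Mir665 by the largest ratio.

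**Figure D1:**
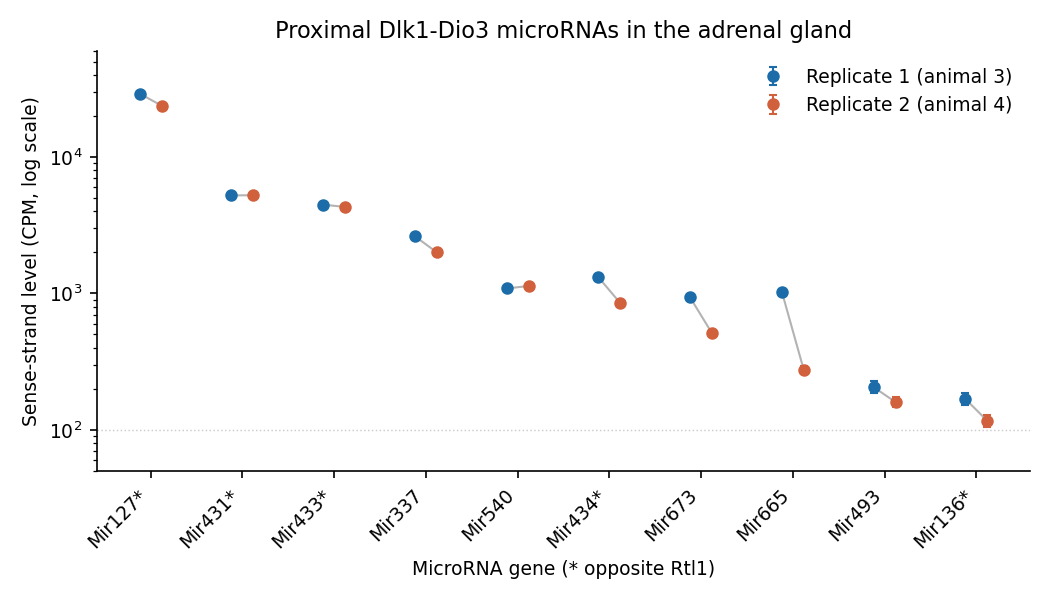
Sense-strand level in CPM (log axis) of the 10 members, ordered by mean, in replicate 1 (blue) and replicate 2 (red), with bars for exact 95% intervals of counting error. Mir127 stands at 29138 and 23754 CPM, Mir136 at 169 and 116 CPM, and Mir665 shows the widest gap on the log axis, at 1029 and 274 CPM.

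The order of the levels was largely kept between the libraries. Of the 9 pairs of neighbours in the order by mean CPM, 7 had the same order in both libraries. The mean comes from these same libraries, so no pair could be reversed in both. The ranges over the 2 libraries were apart for 5 pairs: Mir127 and Mir431, Mir431 and Mir433, Mir433 and Mir337, Mir337 and Mir540, and Mir665 and Mir493. They overlapped for the other 4 pairs, Mir540 with Mir434, Mir434 with Mir673, Mir673 with Mir665, and Mir493 with Mir136. Mir540 and Mir434 changed places between the libraries, as did Mir673 and Mir665. With 2 libraries no permutation test of these orders was possible.

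Level did not follow the order of the genes along the chromosome. Mir127 lies between Mir433 and Mir434, 1007 bases after the one and 1590 before the other. Mir136, 727 bases beyond Mir434, was far lower than the other members opposite Rtl1. Mir337, Mir540 and Mir665 lie within 1 kb, and yet Mir337 was counted 2.42 times as often as Mir540 in replicate 1 and 1.76 times as often in replicate 2.

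**Figure D2:**
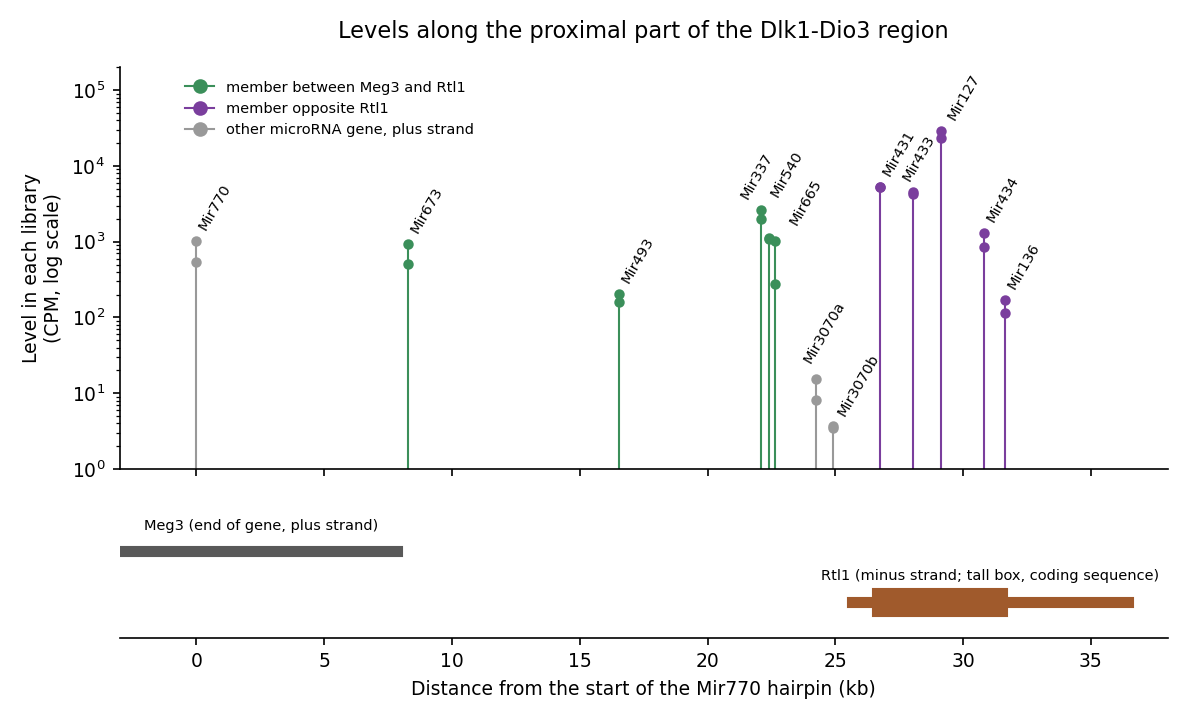
Level in CPM in each library (points, log axis) against distance in kb from the start of the Mir770 hairpin, for plus-strand microRNA genes with a count, above bars for the Meg3 and Rtl1 genes with the coding sequence of Rtl1 as the tall box. The 5 members opposite Rtl1 (purple) run from Mir136 at 116 CPM to Mir127 at 29138 CPM, and the members between Meg3 and Rtl1 (green) from 160 to 2625 CPM.

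The other genes annotated in the interval added little to its summed reads. The members held 98.8% and 97.4% of the reads of its 14 plus-strand genes in replicates 1 and 2. Mir770, within an exon of Meg3, was at 542 and 1028 CPM, a log2 ratio of 0.90 between replicates 2 and 1. It was the 1 gene of the interval called higher in replicate 2 by the test described below. Its mean of 785 CPM was above those of the members Mir673 (721 CPM), Mir665 (651 CPM), Mir493 (183 CPM) and Mir136 (142 CPM). Mir3070a was at 15.3 and 8.10 CPM and Mir3070b at 3.46 and 3.74 CPM. The annotated 5p arm of these copies is identical, so that reads fitting both were not counted and their values are uncertain. Mir432, opposite Rtl1, had no count in either library, which by the limit of 3 counts allows up to 1.48 CPM in replicate 1 or 0.935 CPM in replicate 2.

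Minus-strand microRNA genes opposite the members were far lower than the members. Mir3544 had 74 and 47 counts (36.6 and 14.6 CPM) where Mir337 had 5312 and 6406 counts. Mir3071, which faces Mir136, had 7 and 3 counts where Mir136 had 341 and 373. The arms of each such pair are complementary over 17 and 21 bases for Mir337 with Mir3544, and over 20 and 19 bases for Mir136 with Mir3071. The remaining 8 members had no read on the opposite strand in either library, including Mir127 with 58959 and 76222 reads on its own strand. By the same limit of 3 counts, such a 0 allows up to 1.48 or 0.935 CPM on the opposite strand of each hairpin.

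Each gene was compared between the libraries by a two-sided exact binomial test conditional on its total, and p was adjusted after Benjamini and Hochberg over the 329 genes at 10 CPM or more in either library. It compares these 2 libraries with counting error alone, not conditions, and there is no replicate check. A log2 ratio sets replicate 2 over replicate 1, after TMM scaling and with 1 CPM added to each value. By this test 8 of the 10 members were lower in replicate 2 and 0 were higher, also at an unadjusted p under 0.05. With DESeq2 size factors 7 were lower and 2 higher. Over all 329 genes 73.6% were called in either direction, 39.2% as lower and 34.3% as higher, so that a call as such is common here. The share of members called in either direction, 8 of 10, was near that background. Allowing for the common dispersion of edgeR, estimated from these same libraries (a coefficient of variation of 45.5%), edgeR's exact test called 0 members and 0 genes in all, with 26 genes, Mir665 among them, at an unadjusted p under 0.05.

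The members' log2 ratios had a median of -0.41, against -0.08 over all measured genes, and ran from -1.93 to 0.03. Of the members, 9 of 10 differed by less than 1 log2 unit, against 77.8% of all measured genes. Mir665 alone among the members was called and differed by at least 1 log2 unit, whereas 22.2% of measured genes did so. Its log2 ratio was -1.93 (exact 95% interval -2.05 to -1.82), in size at the 92.4th percentile of measured genes.

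Mir673 had a log2 ratio of -0.90 and lay closest to 1 log2 unit among the rest. The ratios of Mir434 (-0.66), Mir136 (-0.56), Mir337 (-0.42), Mir493 (-0.39) and Mir127 (-0.32) followed. With Mir665, these genes, 7 in all, were also lower in replicate 2 with library totals alone and with DESeq2 size factors as the scaling. Mir433 was lower at -0.08, a call that was lost with DESeq2 size factors (-0.0019, adjusted p by the exact binomial test 0.942). Mir431 (-0.02, adjusted p 0.240) and Mir540 (0.03, adjusted p 0.449) did not pass the exact test, and both passed it as higher in replicate 2 with DESeq2 size factors.

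**Figure D3:**
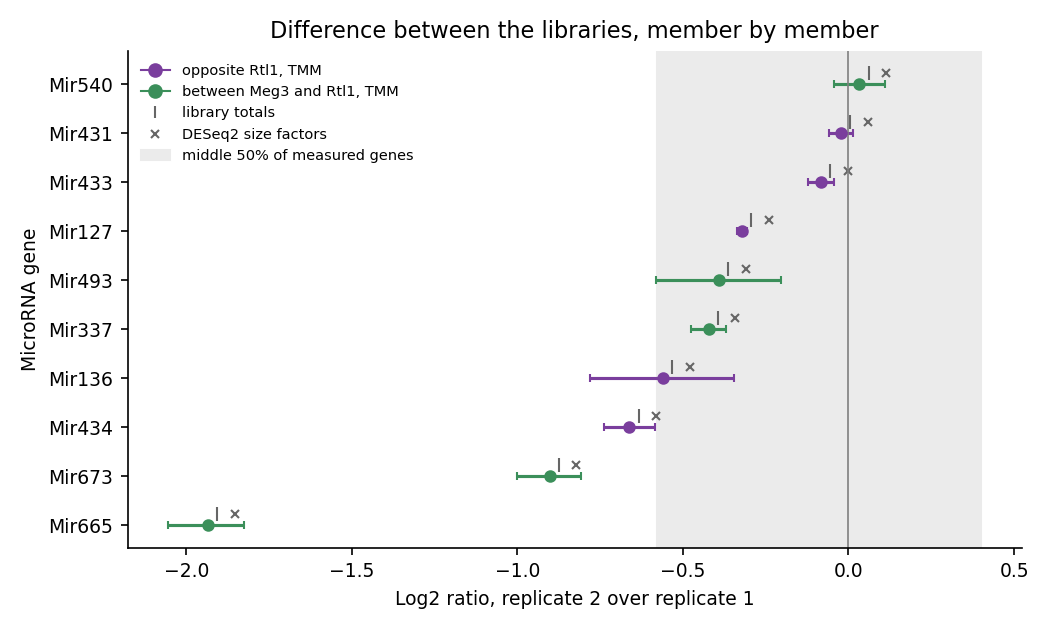
Log2 ratio of replicate 2 over replicate 1 for each member on TMM scaling (points, with exact 95% intervals of counting error), with the ratio under library totals (ticks) and DESeq2 size factors (crosses). The grey band holds the middle 50% of measured genes, from -0.58 to 0.40, and Mir434, Mir673 and Mir665 lie below it.

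A ratio between members of the same library needs no scaling. For every 100 reads of Mir127, Mir431 had 17.9 reads in replicate 1 and 22.1 in replicate 2, and Mir433 had 15.3 and 18.1. Mir337 had 9.01 and 8.40, and Mir493 had 0.706 and 0.672, so these genes kept their proportion to Mir127 more closely. Mir540 had 3.73 and 4.77 reads per 100, and its neighbour Mir665 had 3.53 and 1.15. Mir540 and Mir665 thus stood near each other in replicate 1 and far apart in replicate 2.

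**Figure D4:**
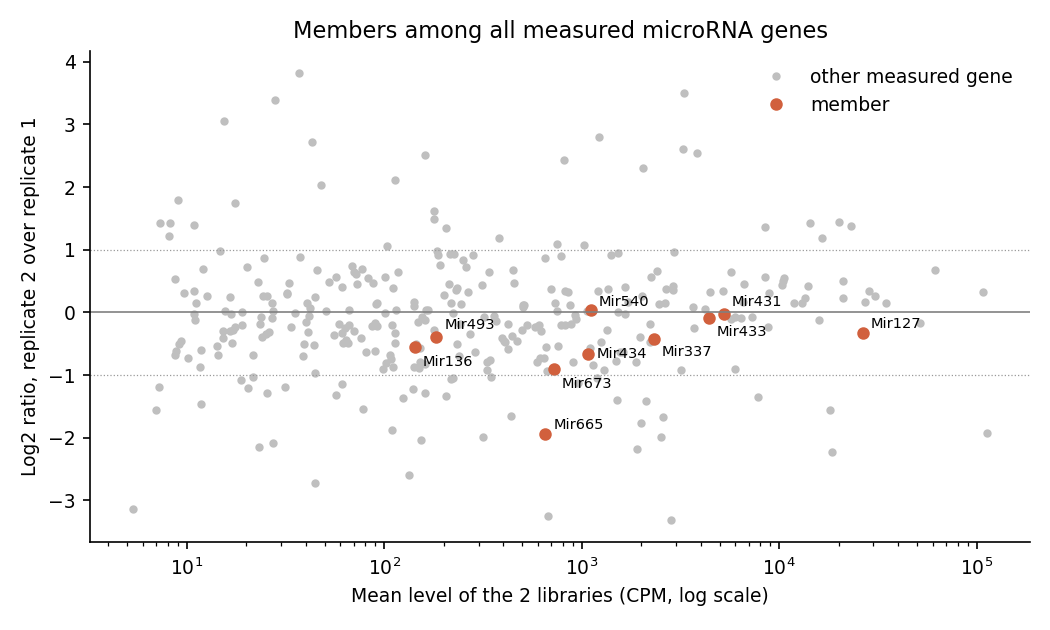
Log2 ratio of replicate 2 over replicate 1 against mean level in CPM (log axis) for the 329 measured microRNA genes, with members in red and dotted lines at 1 log2 unit either way. Of the members, 9 of 10 lie between the dotted lines and Mir665 lies at -1.93.

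The distal microRNA genes of the same region, 44 on the plus strand within 200 kb after the interval, took 4.81% and 4.72% of reads. The members thus held 48.7% and 44.3% of the reads of the interval and the distal genes together. Median level was 1095 CPM for the members and 295 CPM for the distal genes, of which 36 reached 10 CPM in both libraries and 3 had no count. The members are a named part of their interval, while the distal list holds every annotated gene. Over all 14 plus-strand genes of the interval the median was 753 CPM. Of these, 11 (78.6%) reached 10 CPM in both libraries, against 81.8% of the distal genes. The highest distal genes by mean were Mir411 (9446 and 8198 CPM), Mir379 (7358 and 7144 CPM), Mir541 (6535 and 6242 CPM) and Mir487b (1109 and 6585 CPM), all below Mir127. Of 37 distal genes measured, 24 were lower in replicate 2, 9 were higher and 4 did not pass, with a median log2 ratio of -0.41. This is 89.2% called and 64.9% called as lower, against 73.6% and 39.2% over all 329 measured genes. The log2 ratios of the distal genes spread from -3.13 to 2.54, where the low end is Mir544 with 21 and 1 counts. Their SD was 0.979, near the 1.01 over all 329 measured genes, against 0.575 over the members. The distal list includes genes near the floor of 10 CPM, whereas all members stood at 100 CPM or more. These are descriptions, and the difference between the lists was not tested.

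Of the genes outside the region with a mean level within 2-fold of that of Mir127, 16 in number, Mirlet7g (log2 ratio -0.17), Mir335 (-0.12) and Mirlet7i (0.14) came nearest to its log2 ratio of -0.32. Mirlet7i went in the opposite direction to Mir127, and the nearest, Mirlet7g, was still 0.148 log2 units from it. The comparison rests on 2 libraries only.

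The tissue label was checked against microRNAs typical of cell types. Mir375 of neuroendocrine cells, which the adrenal medulla holds, was at 24805 and 31924 CPM. The other markers of that list passed the exact binomial test as lower in replicate 2, where Mir7b was at 2081 against 2333 CPM and Mir137 at 774 against 869 CPM. Mir122 of liver was at 26733 and 9284 CPM, and Mir206 of skeletal muscle at 11177 and 4480 CPM. Over all 329 measured genes, 39.2% were called lower and 34.3% higher in replicate 2, so calls are common. Of 14 marker genes, 8 were lower and 6 higher in replicate 2, and none was at 0. The higher ones, besides Mir375, were Mir143 (27532 and 33734 CPM) and Mir145a (897 and 5579 CPM) of smooth muscle and stroma. Mir203 (300 and 2141 CPM) and Mir200b (114 and 299 CPM) of epithelium and Mir142 of leukocytes (471 and 1023 CPM) were also higher. The liver, striated muscle and gonad markers (Mir122, Mir206, Mir499 and Mir202) had sums of 38070 and 13808 CPM in replicates 1 and 2. They were thus lower in the same library as 8 of the members. Mir126a of endothelium took 17.8% and 4.79% of reads. Their part in the members' ratios was not tested, and in whole tissue, fewer cells of a type and less microRNA per cell cannot be told apart.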

How the data were processed

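The authors deposited raw read counts per microRNA gene for each library, on mm10 with GENCODE M21, per the labels and the notes deposited beside the tables. What aligner and counter were used was not given in the sources used here. Column values show reads irrespective of strand, on the strand of the gene and opposite to it. Counts on the strand of the gene were used. Reads with several alignments (25.0% and 27.2% of all reads in replicates 1 and 2) were not counted, per the 4 summary lines, which stayed out of totals. All 2202 identifiers matched M21.

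CPM was taken over all assigned counts. TMM factors (edgeR 4.0.16 in R 4.3.3) came from genes at 10 CPM or more in either library. Tests ran in SciPy 1.17.1 and were checked on simulated Poisson counts, which hold counting error only. edgeR's quasi-likelihood test has no residual degrees of freedom here. The common dispersion for its exact test was estimated with both libraries as 1 group. The difference between the libraries thus entered the estimate as noise, so few calls follow from the setup and no conclusion is drawn from their absence. Hairpins were folded with RNAfold 2.7.2, and all 10 members matched the RefSeq sequences.

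Named genes were the members, other microRNA genes in the interval and the 4 most abundant distal genes. Added to these were the 3 genes nearest to Mir127 in log2 ratio, among genes outside the region within 2-fold of its mean level. Members, lists and markers were chosen with earlier results of these data known. Alternatives were other scalings, floors, pseudocounts, counts irrespective of strand, edgeR's exact test with a common dispersion, and leaving out each replicate.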

Additional observations from a re-analysis of the deposited data

Results flagged for a closer look

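Reads on the strand opposite to a member, which the levels above do not use, exceeded the 3 counts that a count of 0 allows at Mir337 in both libraries and at Mir136 in 1 library. Mir337 had 77 such reads in replicate 1 and 55 in replicate 2, of which 74 and 47 were assigned to Mir3544, the minus-strand gene inside the Mir337 hairpin. Mir136 had 7 in replicate 1, all assigned to Mir3071, and 3 in replicate 2.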

How the results depend on the processing

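All alternatives but 1 were planned. TMM over all genes with a count was added after the data were seen. Leaving out each replicate in turn gave a summed share of the members from 3.83% to 4.62% and a share of Mir127 among them from 62.0% to 63.1%. With 2 libraries this only returns the value of the other library, so it is no separate check. Log2 ratios need both libraries, so they have no such values. Counted irrespective of strand, Mir337 and Mir136 lost their reads as ambiguous, 8 members reached 10 CPM in both libraries, the summed share was 5.42% and the share of Mir127 was 66.4%. With the most abundant gene of each library left out of the total, the summed share was 4.99%. Members called higher in replicate 2 numbered 2 with DESeq2 size factors and 2 with TMM over all genes, where Mir540 and Mir431 passed. Mir431 turned to 0.058 with DESeq2 size factors, 0.052 with TMM over all genes and 0.0044 with library totals. Mir433 no longer passed under the former 2 scalings. On simulated Poisson counts, 13.1% of 122 unchanged genes were called with TMM over all genes and 5.74% with TMM over measured genes. Their median log2 ratios were 0.033 and -0.031. The simulated counts held no spread beyond counting error, so these rates do not carry over to the real libraries. With edgeR's exact test and the common dispersion (coefficient of variation 45.5%), 0 members and 0 of all genes passed in either direction. At an unadjusted p under 0.05 it gave 26 genes, of which 1 was a member, Mir665 (adjusted p 0.626). Floors and pseudocounts changed no member's call. No paired analysis was possible because the series has 1 group. Counting error limits Mir136 and Mir493 most among the members.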
